A study of Mus musculus with 4 samples.

Results

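RNA-seq of mouse oocytes was examined for 7 genes of translesion synthesis: the ubiquitin ligase Rad18, the Y-family polymerases Rev1, Polh, Poli and Polk, and Rev3l and Mad2l2, which encode the catalytic subunit of DNA polymerase zeta and its partner REV7. The genes were taken by their NCBI gene IDs, and all 7 were present among 17374 genes, with 45 of the 45505 RefSeq transcripts listed. Germinal vesicle stage oocytes were collected on postnatal day 16 from non-primed F1 hybrid females (C57/Bl6/DBA2J), freed of cumulus cells and kept in MEM with albumin and milrinone, which keeps meiosis arrested. They were sequenced as pools in 4 libraries, 2 control and 2 irradiated. Irradiated oocytes received 5 Gy of γ-irradiation from a Cesium-137 source and were collected 24 h later. The series text has control oocytes sequenced directly, and how long they were in culture before that is not given clearly in the sources used here. If the times differed, irradiation and the culture following it cannot be told apart. The labels do not give the animals behind each pool, and the methods call the replicates independent experiments.

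Translesion synthesis lets a cell copy DNA across a damaged base that stops the replicative polymerases. RAD18, with the conjugating enzymes RAD6A and RAD6B, attaches ubiquitin to the sliding clamp PCNA, and this mark recruits the Y-family polymerases, which insert a nucleotide opposite the lesion. REV1 is both a deoxycytidyl transferase and the scaffold that holds the inserter polymerases and polymerase zeta together, and polymerase zeta then extends from the inserted base. Germinal vesicle oocytes are arrested in meiotic prophase and do not replicate their DNA, and they store many messages for use by the embryo.

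Estimated read counts summed to between 33349466 and 37232818 per library. All 10 oocyte markers examined were present, with a summed level of 46770.5 and 47009 TPM in control and 46310 and 43126 TPM in irradiated libraries (TPM, a level corrected for transcript length and set to an equal total per library). Of 12 granulosa and cumulus markers, 9 were listed and Amh, Foxl2 and Fst were not analysed here. Their summed level was 17.8 and 20.2 TPM in control and 17.6 and 24.5 TPM in irradiated libraries, and irradiated library 2 had the highest TPM for 5 of the 9. Over the 4 libraries Cyp19a1 had 8.79 to 10.2 TPM, Nr5a2 3.53 to 7.43, Fshr 1.66 to 2.89, Kitl 1.45 to 2.07 and Cyp11a1 0.90 to 2.17 TPM, within or above the range of the 4 lowest of the 7 genes. Inha had 0.10 to 0.31 TPM, and Gja1, Inhba and Hsd17b1 had 0.07 TPM or less. Irradiated library 2 stood apart: its scaling factor for composition (TMM, trimmed mean of M values) was 1.19 against 0.923 to 0.975 in the other 3 libraries, and its 10 largest genes took 20.8% of the counts against 17.6% to 19.1%. Among oocyte markers it had 1937 TPM of Zp2 against 4115 to 4452 in the others, 1215 of Nobox against 398 to 468 and 2579 of Zp1 against 989 to 1294. Values without this library are given beside the results they turn, those of Poli and Mad2l2 among the gene totals. The part of the marker levels in the results was not tested.

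Start regions of RefSeq were found for 5 of the 7 genes, all but Rev3l and Poli. They are shown for the gene with the highest level, Mad2l2, whose transcripts from 2 start positions are counted separately, for Rad18 and Rev1, which act first and hold the polymerases together, and for Polh, which had the lowest level. Each window holds 250 bases before the listed start position and 50 after it, read 5′ to 3′ on the strand of the gene. Capitals mark the GC box GGGCGG on either strand. The main transcript of Mad2l2, NM_027985.3, begins at 148140182 in GENCODE, before the downstream window, which therefore does not cover that start.
Mad2l2, upstream start, GRCm38.p6 chr4:148130670-148130969, plus strand: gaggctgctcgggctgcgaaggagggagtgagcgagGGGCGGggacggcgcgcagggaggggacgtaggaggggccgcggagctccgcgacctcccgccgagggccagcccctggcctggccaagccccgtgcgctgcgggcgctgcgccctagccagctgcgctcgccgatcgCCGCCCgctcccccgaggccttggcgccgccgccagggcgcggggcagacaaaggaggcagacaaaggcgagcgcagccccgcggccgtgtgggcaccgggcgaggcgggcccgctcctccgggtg
Mad2l2, downstream start, GRCm38.p6 chr4:148140240-148140539, plus strand: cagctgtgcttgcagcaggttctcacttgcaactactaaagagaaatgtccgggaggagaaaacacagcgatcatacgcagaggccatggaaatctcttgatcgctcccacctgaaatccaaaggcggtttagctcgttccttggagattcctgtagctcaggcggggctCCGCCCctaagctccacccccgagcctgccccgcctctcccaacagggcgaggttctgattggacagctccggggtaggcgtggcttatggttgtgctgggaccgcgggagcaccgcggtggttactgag
Rad18, GRCm38.p6 chr6:112696621-112696920, minus strand: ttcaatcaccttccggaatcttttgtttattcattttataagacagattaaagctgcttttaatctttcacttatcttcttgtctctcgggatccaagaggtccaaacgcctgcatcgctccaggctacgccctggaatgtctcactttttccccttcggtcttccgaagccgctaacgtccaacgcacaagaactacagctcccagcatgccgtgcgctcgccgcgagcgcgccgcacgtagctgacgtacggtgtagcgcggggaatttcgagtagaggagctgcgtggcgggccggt
Rev1, GRCm38.p6 chr1:38129617-38129916, minus strand: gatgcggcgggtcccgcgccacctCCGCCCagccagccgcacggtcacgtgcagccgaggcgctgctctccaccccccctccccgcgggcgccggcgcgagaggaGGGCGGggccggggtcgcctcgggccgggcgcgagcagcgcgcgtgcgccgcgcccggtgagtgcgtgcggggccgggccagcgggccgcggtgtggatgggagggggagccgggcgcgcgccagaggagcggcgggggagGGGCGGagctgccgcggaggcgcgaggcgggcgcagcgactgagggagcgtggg
Polh, GRCm38.p6 chr17:46202592-46202891, minus strand: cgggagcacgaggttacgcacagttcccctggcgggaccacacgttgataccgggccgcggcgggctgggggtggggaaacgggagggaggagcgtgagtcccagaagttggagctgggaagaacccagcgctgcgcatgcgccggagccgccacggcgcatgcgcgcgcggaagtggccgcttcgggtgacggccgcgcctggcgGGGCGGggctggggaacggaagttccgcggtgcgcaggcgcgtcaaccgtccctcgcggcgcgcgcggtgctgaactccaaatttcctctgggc
The GC box was present 3 times in the window of Rev1, 2 times at the upstream and once at the downstream start of Mad2l2, once in that of Polh and 0 times in that of Rad18. Over 32851 windows of the same length, 35.7% held at least 1 GC box. The windows of Rev1, Polh and the upstream start of Mad2l2 held 51, 42 and 41 CpG dinucleotides, that of Rad18 held 27 and the downstream start of Mad2l2 held 17, beside a median of 7 over all windows. The CCAAT box (CCAAT on either strand; 37.4% of all windows) was found once, at the downstream start of Mad2l2. The TATA box sequence TATAAA (13.6% of all windows) was found once, in Rad18 on the opposite strand. These letters are matches and were not tested as binding sites.

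The level of the highest gene was 85.0 to 139 times that of the lowest within a library on the TPM scale, and the order of the 7 genes held in 3 of 4 libraries. Mad2l2 was the highest, with 48.97 and 58.36 TPM in control and 50.97 and 83.51 TPM in irradiated libraries 1 and 2. Rad18 followed with 20.65, 20.64, 19.66 and 23.01 TPM over control 1, control 2, irradiated 1 and irradiated 2. Poli had 12.52, 13.25, 13.57 and 16.23 TPM over the same libraries.
Thus the highest levels belonged to the partner of polymerase zeta, to the clamp ligase and to polymerase iota, an error-prone inserter. Rev1 had 4.39, 4.18, 4.17 and 4.57 TPM, a range of 1.10-fold over the 4 libraries, the narrowest of the 7 on this scale. In the normalized counts described below, its range was 1.33-fold, wider than that of every other member but Polh (1.41-fold). Rev3l had 1.50, 1.64, 1.37 and 1.85 TPM.
Polk, an inserter that bypasses bulky adducts on guanine, had 1.05, 1.24, 1.40 and 1.84 TPM. Polh, which copies accurately past thymine dimers induced by ultraviolet light, had 0.45, 0.42, 0.60 and 0.81 TPM. Rev3l and Polk exchanged places in irradiated library 1 and their ranges overlapped, while each other pair of neighbours in the order was separate, the lowest library of the higher gene lying above the highest library of the lower gene.
Ranked by mean TPM among all 17374 listed genes, Mad2l2 lay above 90.5% of genes, Rad18 above 82.5%, Poli above 78.3%, Rev1 above 64.3%, Rev3l above 51.4%, Polk above 49.6% and Polh above 39.4%. Counts per kilobase of the matched GENCODE transcript gave the same order of the 7 genes.

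**Figure D1:**
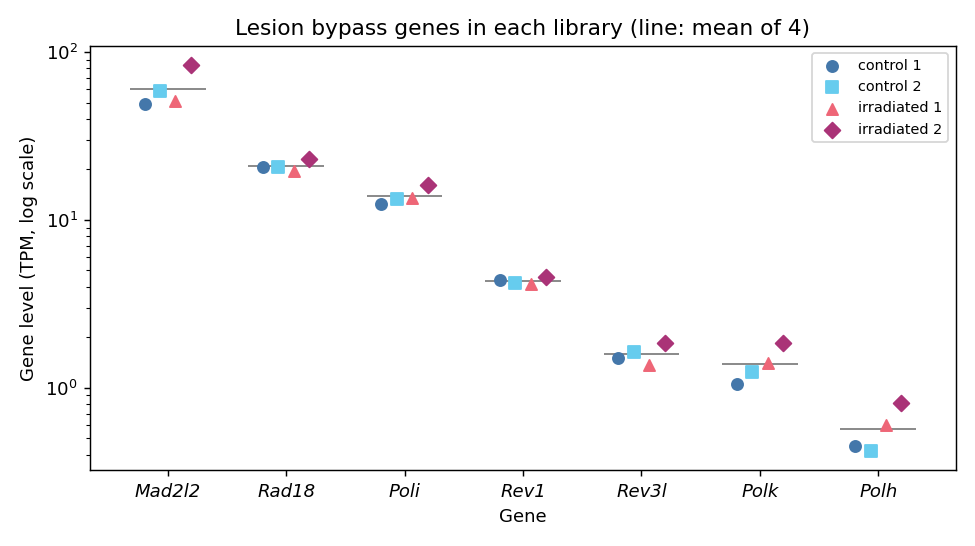
Gene level in TPM on a log axis for the 7 genes, with 1 point for each of the 4 libraries and a line at the mean of the 4. Mad2l2 lies at 49.0 to 83.5 TPM and Polh at 0.42 to 0.81 TPM, and irradiated library 2 holds the highest point of each gene.

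Irradiated library 2 had the highest TPM for 7 of the 7 genes. It also had the highest TPM for 74.7% of the 12569 genes tested, so that most genes shared this position. In TPM the conditions did not overlap for Polh, Poli and Polk, with both irradiated libraries above both controls in all 3. Over all genes tested, 38.6% did not overlap in TPM and 32.7% had both irradiated libraries above. Changes were therefore read from normalized counts, in which the estimated count of a gene is divided by the library's size and its TMM factor. On TPM with a pseudocount of 0.1, the median log2 change over all genes tested was 0.21 and that of the 7 genes 0.20. On normalized counts the 2 medians were 0.0102 and -0.0161.
A total was called where its adjusted p was under 0.05 and its log2 fold change exceeded 2 in size. With edgeR's quasi-likelihood test 0 of the 7 genes were called, and 0 of 7 had an unadjusted p under 0.05 (lowest Benjamini-Hochberg-adjusted p = 0.714). Over all genes tested 0.00796% passed both limits and 5.92% had an unadjusted p under 0.05. DESeq2, limma-voom and the exact test of edgeR also called 0 of the 7, with 0 at an unadjusted p under 0.05 in each. The 95% intervals were narrow against the limits: the lowest bound was a log2 change of -0.57, for Rev1, and the highest was 1.00, for Polh. In normalized counts the libraries of the 2 conditions did not overlap for Rad18, Rev3l, Polh and Polk, 4 of 7 genes, beside 41.9% of all genes tested.

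**Figure D2:**
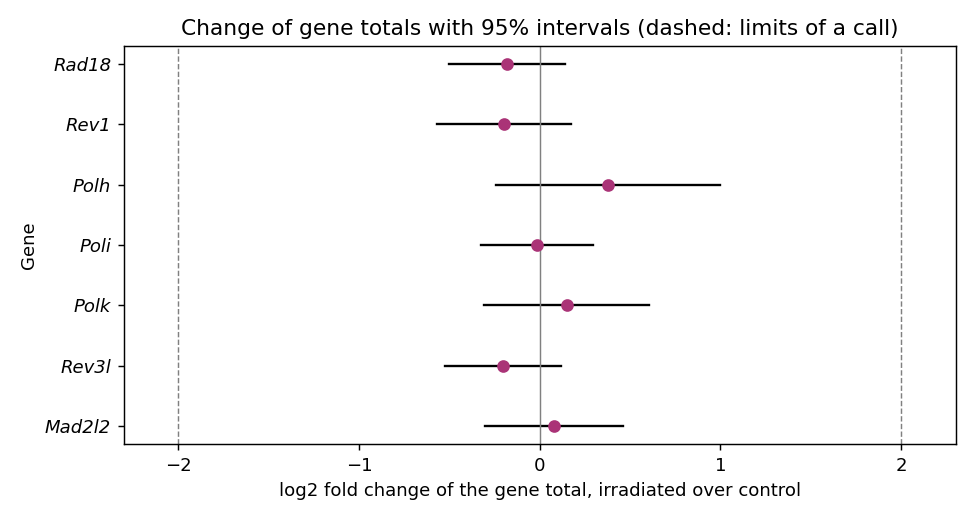
Log2 fold change of each gene total, irradiated over control, with its 95% interval, from 2 libraries per condition; dashed lines stand at the limits of a call, -2 and 2. Each interval includes 0, from -0.57 at the lowest bound to 1.00 at the highest.

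Rad18 (chromosome 6 of GRCm38, 112619851 to 112696691; 5 listed transcripts) is the ligase that starts the pathway by marking PCNA. Its estimated counts were 1350 and 1202 without and 1183 and 1293 after irradiation. The methods give equal numbers of control and irradiated oocytes. Normalized counts are relative to the library and do not give message per oocyte, for Rad18 or any other gene here. Normalized counts were 1384 and 1303 in control and 1258 and 1113 in irradiated libraries, with means of 1343 ± 57.2 and 1186 ± 102 (SD, n = 2 each). Both irradiated libraries lay below both control libraries on this scale and not on TPM, where the difference turned to a log2 change of 0.0428. The fitted log2 change was -0.18 (standard error 0.136, adjusted p = 0.729, edgeR with Benjamini-Hochberg adjustment), with an interval from -0.50 to 0.14.
Rad18 gave most of its reads to a known and a predicted transcript. NM_021385.2 held 623, 609, 612 and 680 counts over control 1, control 2, irradiated 1 and irradiated 2, and the predicted transcript XM_006506436.4 held 580, 474, 443 and 466. The known transcript thus had the larger share of the gene in each library, from 46.1% (Wilson 95% interval 43.5% to 48.8%) in control library 1 to 52.6% (49.9% to 55.3%) in irradiated library 2. The share of XM_006506436.4 was 43.0% and 39.4% in control and 37.5% and 36.0% in irradiated libraries. Its log2 change was -0.33 (standard error 0.164, adjusted p = 1.00, edgeR with Benjamini-Hochberg adjustment), and the usage test gave Rad18 an unadjusted p of 0.939. The intervals of shares, here and below, cover counting error only.

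Rev1 (chromosome 1, 38052786 to 38129921; 8 listed transcripts) had 491 and 415 counts without and 427 and 440 after irradiation. The scaled values were 503, 450, 454 and 379 over control 1, control 2, irradiated 1 and irradiated 2, with irradiated library 1 between the control libraries. The 95% interval of the ratio ran from 0.676-fold to 1.13-fold. The 3′ end of Rev1 overlaps Eif5b in RefSeq, and the strand setting of the counting is not given in the sources used here. The totals of Rev1 departed from whole numbers by up to 0.39 reads, as those of Poli did by up to 0.33, while the other 5 genes lay within 0.07.
Within Rev1 the libraries differed mainly in which predicted transcript was given reads. NM_019570.4 held 277, 246, 285 and 269 counts over control 1, control 2, irradiated 1 and irradiated 2, and XM_006496156.3 and XM_030255639.1 also had reads in every library. These 3 transcripts, a set chosen by these same counts, together held 73.8% and 70.3% of the gene in control and 80.6% and 82.1% in irradiated libraries. NM_001359288.1 had 11 counts in each of control 2 and irradiated 2 and 0 in the others.
The other predicted transcripts came and went. Only the control libraries held XM_006496154.4, with 128 and 68 counts, while both irradiated libraries had 0, where 0 counts allow a share of up to 0.702% and 0.682% of the gene. XM_006496155.4 had 83 counts in irradiated library 1 alone. XM_006496153.4 had 68 counts in irradiated library 2 and at most 1 in the others.
XM_030255641.1 had 44 counts in control library 2 and at most 1 in the others. Each library thus had reads of at least 1 of the 4. Summed over these 4 transcripts, a set chosen after its values were seen, the counts were 128, 112, 83 and 68 over control 1, control 2, irradiated 1 and irradiated 2, or 26.2%, 27.0%, 19.4% and 15.5% of the gene. The ratio of counts to TPM in the deposited table, which follows the length used for a transcript, was 0.982 to 0.993 of that of NM_019570.4 for the 4, so their lengths differed little.
In normalized counts, the control mean of XM_006496154.4 was 35.2-fold the mean of a floor of 3 counts per irradiated library. This ratio of means is not a bound for each library, and it takes the division of reads among transcripts as given. By the quasi-likelihood test of edgeR its unadjusted p was 0.00297 and its adjusted p 0.777, while DESeq2 gave an adjusted p of 0.000266 and the exact test of edgeR 0.000226 (Benjamini-Hochberg). XM_006496154.4 passed edgeR's low-count filter through the control libraries alone. These p-values, and the usage test that includes it, are therefore not taken as support for a change. DESeq2 called 0.862% of all transcripts it adjusted. The test of isoform usage, on the share of each transcript within a gene, gave Rev1 an unadjusted p of 0.000832 and an adjusted p of 0.124 (diffSpliceDGE of edgeR, Simes' method with Benjamini-Hochberg adjustment). The adjusted p was 0.0884 with an F test over the transcripts and 0.701 with limma's diffSplice. Rev1 was the gene with the lowest usage p of the 7, and 0 of 7 were called, beside 0.253% of 6323 genes tested for usage. It was also the 1 of 7 with an unadjusted p under 0.05, beside 6.12% of genes.

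**Figure D3:**
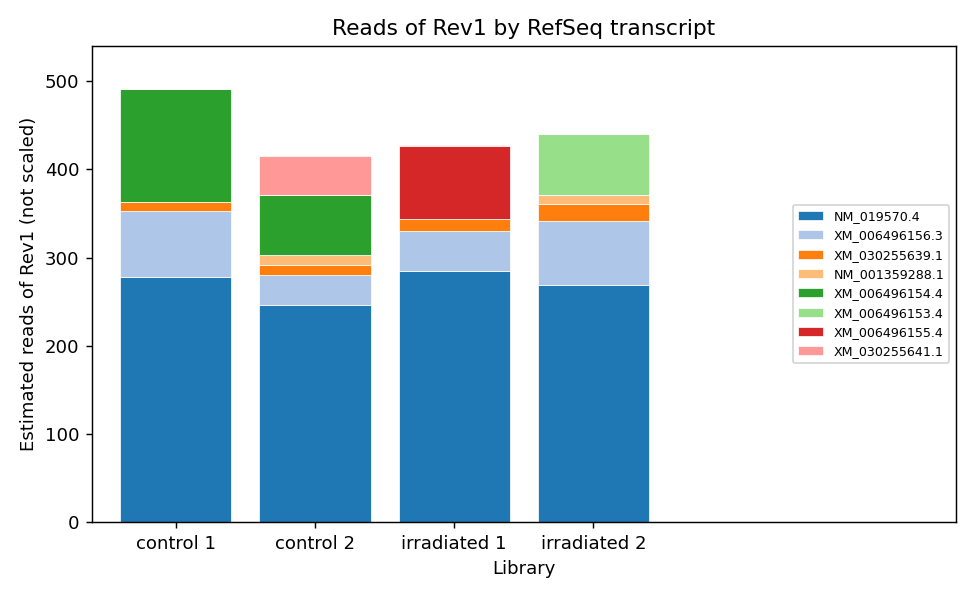
Estimated reads of Rev1 in each library, not scaled for library size, stacked by RefSeq transcript. The block of NM_019570.4 measures 246 to 285 reads in all 4 libraries, and the upper blocks change identity from library to library, with XM_006496154.4 in the 2 control libraries, XM_006496155.4 in irradiated library 1 and XM_006496153.4 in irradiated library 2.

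The inserter polymerases ranged from many reads to few. Poli (chromosome 18, 70508680 to 70534950; 11 listed transcripts) had 795 and 744 counts without and 793 and 883 after irradiation, or 811 ± 6.34 and 802 ± 59.0 normalized counts (SD, n = 2 each). The conditions overlapped, and the fitted log2 change was -0.0161 (standard error 0.131, adjusted p = 0.967, edgeR with Benjamini-Hochberg adjustment), the smallest in size of the 7. It turned to 0.0584 without irradiated library 2, to 0.14 with library size alone and to 0.20 on TPM.
Among the transcripts of Poli, NM_011972.2 held 547, 557, 457 and 551 counts and the predicted XM_006525945.4 held 204, 160, 289 and 302 over control 1, control 2, irradiated 1 and irradiated 2. The share of XM_006525945.4 was 25.7% and 21.5% in control and 36.5% and 34.2% in irradiated libraries, with Wilson 95% intervals that reached 28.8% at most in control and began at 31.2% in irradiated oocytes. The difference did not pass the test across libraries: the log2 fold change of this transcript was 0.58 (standard error 0.208, unadjusted p = 0.0524, adjusted p = 1.00, edgeR with Benjamini-Hochberg adjustment), and the usage test gave Poli an unadjusted p of 0.795.
Polk (chromosome 13, 96480687 to 96542579; 4 listed transcripts) had 111 and 123 counts without and 127 and 161 after irradiation. Its normalized counts were 124 ± 13.8 and 137 ± 2.52 (SD, n = 2 each), a log2 change of 0.15 (standard error 0.193) with an interval from -0.31 to 0.61. The control libraries, at 114 and 133, lay just under the irradiated ones, at 135 and 139. NM_012048.3 held 96, 113, 85 and 114 of its counts, and NM_001347606.1 held 15, 0, 36 and 28.
Polh (chromosome 17, 46171355 to 46202641; 2 listed transcripts) had the fewest reads, 37 and 31 counts without and 43 and 55 after irradiation. Its log2 fold change of 0.38 was the largest of the 7 and also the least precise (standard error 0.262, adjusted p = 0.714, edgeR with Benjamini-Hochberg adjustment). Normalized counts were 35.8 ± 3.00 in control and 46.5 ± 1.15 in irradiated oocytes (SD, n = 2 each), without overlap. Ratios from 0.846-fold to 2.00-fold lay inside the 95% interval.
The transcript of Polh that took the reads differed between libraries. NM_030715.4 had 28, 31, 0 and 21 counts and NM_001364947.1 had 9, 0, 43 and 34 over control 1, control 2, irradiated 1 and irradiated 2. The share of NM_001364947.1 was 23.4% (Wilson 95% interval 12.7% to 39.1%) and 0% (0 counts allow up to 9.66%) in control, and 100% (lower bound 91.8%) and 62.7% (49.5% to 74.2%) in irradiated libraries. The usage test did not call it (unadjusted p = 0.346).

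Polymerase zeta joins a very large catalytic subunit to a small adaptor, and the 2 messages differed greatly in level. The GENCODE transcript matched to NM_011264.3 of Rev3l (chromosome 10, 39731561 to 39875211; 4 listed transcripts) has 32 exons, 10713 bases and a coding length of 9366 bases. That matched to NM_027985.3 of Mad2l2 (chromosome 4, 148130158 to 148145704; 11 listed transcripts) has 8 exons, 1535 bases and a coding length of 633 bases. Corrected for length, the level of Mad2l2 was 32.6, 35.6, 37.2 and 45.1 times that of Rev3l over control 1, control 2, irradiated 1 and irradiated 2. REV7, the product of Mad2l2, also serves in the shieldin complex of double-strand break repair and as an inhibitor of the anaphase-promoting complex.
Rev3l had 432 and 420 counts without and 362 and 460 after irradiation, or 449 ± 8.79 and 391 ± 7.86 normalized counts (SD, n = 2 each). Both irradiated libraries lay below both controls after scaling, a log2 change of -0.20 (standard error 0.135, adjusted p = 0.714, edgeR with Benjamini-Hochberg adjustment) that turned to 0.0211 on TPM. Leaving out any 1 library gave -0.22 to -0.18.
NM_011264.3 held 400, 278, 331 and 337 counts of Rev3l. The predicted XM_006512622.3 had 0 counts in both control libraries, which allow a share of up to 0.694% and 0.714%, and 27 and 50 counts in the irradiated libraries. In normalized counts, its irradiated mean was 11.5-fold the mean of a floor of 3 counts per control library, a ratio of means and not a bound for each library. The quasi-likelihood test of edgeR gave an unadjusted p of 0.00838 and an adjusted p of 0.777, DESeq2 an adjusted p of 0.111 and the exact test of edgeR 0.0536 (Benjamini-Hochberg). XM_006512622.3 passed edgeR's low-count filter through the irradiated libraries alone, so these p-values are not taken as support for a change. A further predicted transcript, XM_006512624.4, had 32, 142, 0 and 73 counts with irradiated library 2 between the control libraries.
Mad2l2 had 1364 and 1469 counts without and 1323 and 2033 after irradiation. Irradiated library 2 was the highest and irradiated library 1 the lowest in counts, and the conditions overlapped. Normalized counts were 1495 ± 137 and 1579 ± 243 (SD, n = 2 each), a log2 change of 0.0792 (standard error 0.160) with an interval from -0.30 to 0.46. Without irradiated library 2 it turned to -0.0859 and without control library 1 to -0.0118, and without irradiated library 1 it was 0.23.
The 2 start regions of Mad2l2 printed above lie 9570 bases apart. NM_001305420.1, whose GENCODE match begins at 148130915 in the upstream window, held 180, 148, 181 and 177 counts. NM_027985.3, whose GENCODE match begins at 148140182, just before the downstream window, held 970, 1086, 910 and 1472. The upstream transcript thus had 13.2%, 10.1%, 13.7% and 8.70% of the gene over control 1, control 2, irradiated 1 and irradiated 2, and the downstream one 71.1%, 73.9%, 68.8% and 72.4%. The upstream start lies within Draxin in RefSeq, and the strand setting of the counting is not given in the sources used here.

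**Figure D4:**
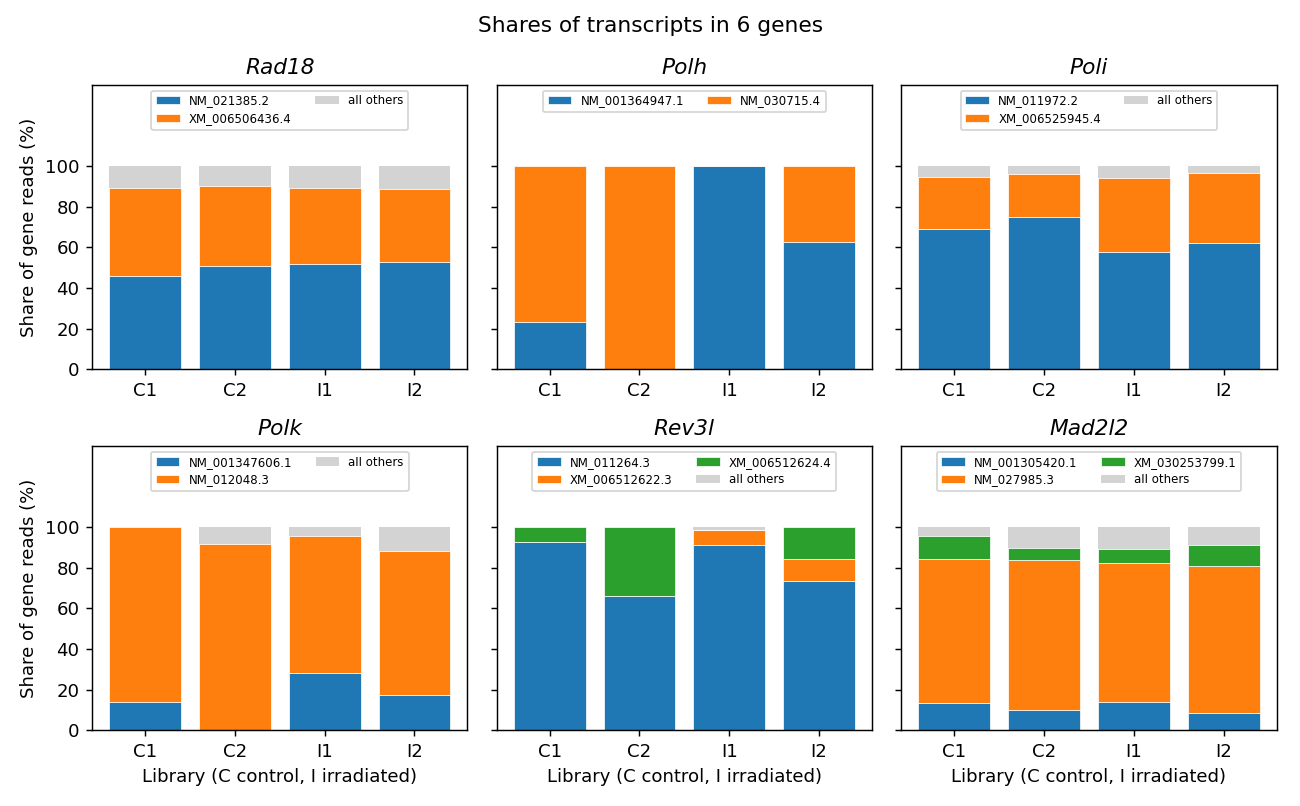
Share of each gene's estimated reads by RefSeq transcript in control (C1, C2) and irradiated (I1, I2) libraries for Rad18, Polh, Poli, Polk, Rev3l and Mad2l2; transcripts under 10% in every library are grouped as all others. NM_027985.3 holds 68.8% to 73.9% of Mad2l2, while NM_001364947.1 of Polh runs from 0% to 100%.

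Of the 45 transcripts of the 7 genes, 30 carry RefSeq's XM_ prefix for predicted transcripts. Over 3 counts were present in all 4 libraries for 17 of them, in 1 to 3 libraries for 25 and in 0 libraries for 3. Among all 45505 listed transcripts, 47.9% had over 3 counts in all 4 libraries and 40.4% in 1 to 3. The low-count filter kept 29 of the 45, and 2 of these, in Rev1 and Rev3l as described, had an unadjusted p under 0.05, beside 4.9% of 26645 transcripts tested. Both passed the filter only through the condition where they had reads. The quasi-likelihood test called 0 of the 29 and 0% of all transcripts, and DESeq2 and the exact test each called 1 of the members' transcripts, XM_006496154.4 of Rev1.

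Partners that act on the clamp and with the polymerases were read from a list of 22 genes, all of which were tested. None was called, and 0 were higher and 2 lower at an unadjusted p under 0.05, beside 4.63% and 1.29% of all genes tested. The 2 were Hltf and Shprh, the 2 mammalian relatives of yeast Rad5, which extend ubiquitin chains on PCNA. Hltf had 4.43, 4.25, 3.75 and 3.24 TPM over control 1, control 2, irradiated 1 and irradiated 2 and a log2 change of -0.52 (standard error 0.209, adjusted p = 0.708, edgeR with Benjamini-Hochberg adjustment). The value was -0.84 with irradiated library 1 left out and -0.26 with irradiated library 2 left out.
Shprh had 3.04, 3.54, 2.78 and 3.17 TPM and a log2 change of -0.38 (standard error 0.144), or -0.49 and -0.27 with irradiated library 1 or 2 left out. Rfc5, a subunit of the clamp loader, had the highest value of the list, a log2 change of 0.24 (standard error 0.131). The signs in the list depended on the scaling: 16 of 22 values were negative with TMM factors (median -0.12), 9 with library size alone and 5 on TPM. The median over all genes tested was 0.0102 with TMM factors, 0.17 with library size alone and 0.21 on TPM with a pseudocount of 0.1. The share of negative values over all genes was not counted.
The median level of the partners was 24.1 TPM against 4.33 TPM for the 7 genes. Pcna had 96.6, 98.9, 86.8 and 114 TPM. Ube2a and Ube2b, which encode the RAD6 enzymes that pair with RAD18, had 110 to 131 and 83.3 to 111 TPM. Pold2 and Pold3, accessory subunits that polymerase zeta shares with polymerase delta, had 14.6 to 24.1 and 53.9 to 77.5 TPM, so that the catalytic subunit Rev3l was the scarcest message of the polymerase zeta holoenzyme in every library.

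**Figure D5:**
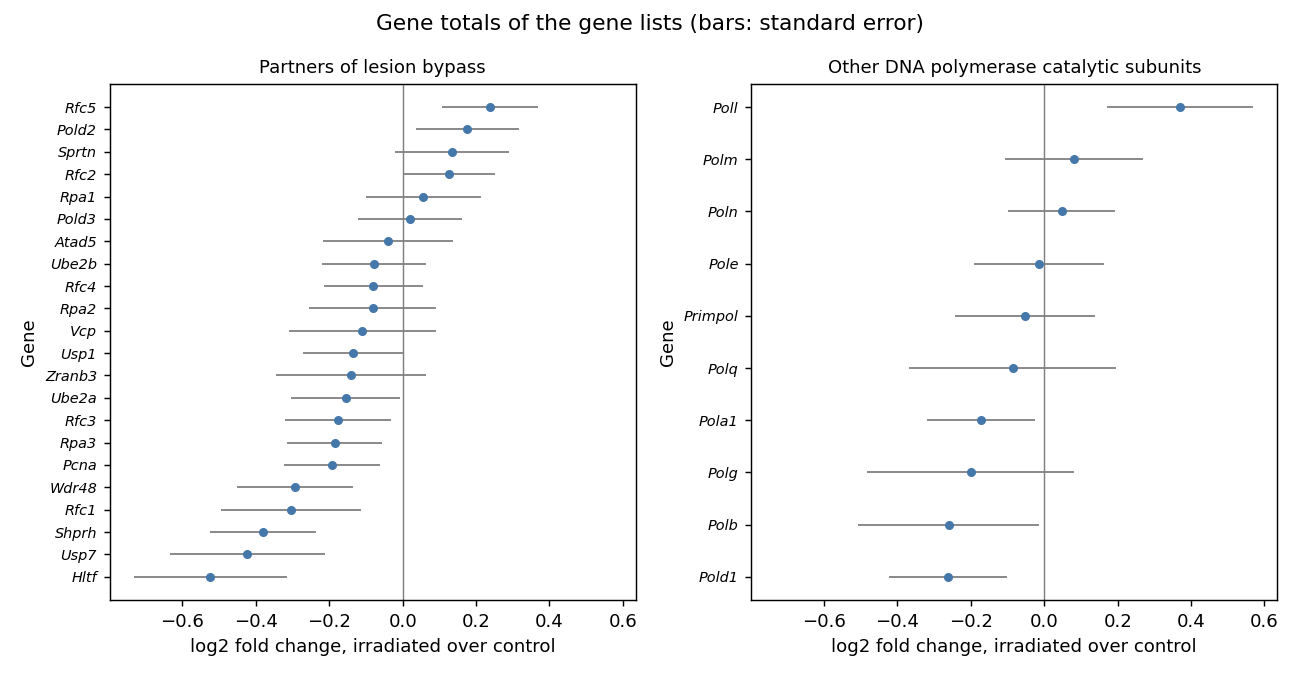
Log2 fold change of gene totals, irradiated over control, with standard errors, for 22 partners of lesion bypass (left) and 10 other DNA polymerase catalytic subunits (right). Hltf has the lowest value, -0.52, and Poll the highest, 0.37.

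The 10 other catalytic subunits gave a scale for these levels. Polb, the polymerase of base excision repair, had 430, 412, 416 and 387 TPM, above each of the 7 genes. The replicative subunits Pola1, Pold1 and Pole had 5.03 to 8.03, 8.08 to 8.45 and 1.48 to 2.29 TPM, and Poli was above all 3 in every library. Polq, of theta-mediated end joining, had 0.15 to 0.20 TPM, and Polg, the mitochondrial polymerase, 0.44 to 0.59 TPM. None of the 10 had an unadjusted p under 0.05, and their log2 fold changes ran from -0.26 for Pold1 (standard error 0.161) to 0.37 for Poll (standard error 0.199), a polymerase of end joining. Dntt, the remaining gene of the list, was not analysed here.
By the mean absolute difference of log2(TPM + 1) over the 4 libraries, the genes closest to Rev1 were Rnf19b (0.0364), Specc1l (0.0427) and Otud4 (0.0434). The genes closest to Mad2l2 were H2-Aa (0.0289), Necab2 (0.0435) and Eef1akmt1 (0.0486).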

How the data were processed

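RNA-seq was available for 2 control and 2 irradiated oocyte libraries, grouped by the sample titles. The authors trimmed paired-end reads and aligned them with Bowtie2 to GRCm38. They deposited, for each RefSeq transcript, an estimated count (the submitters' processing notes name HISAT2, Bowtie2 and RSEM, without versions) and a deposited TPM value, scaled to the same total per library after length correction. FPKM and average columns, 10 in all, were not used. The annotation release and strand setting are not given in the sources used here.

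Counts were rounded, per transcript or after summing by gene, and compared by the quasi-likelihood test of edgeR 4.0.16 (R 4.3.3; glmQLFit and glmQLFTest without a block, TMM scaling, low counts removed by filterByExpr at 10) over 12569 genes and 26645 transcripts, with Benjamini-Hochberg adjustment over all of them. A call needed an adjusted p below 0.05 and a log2 change beyond 2 in size. These limits are those of the paper, which sets them for transcripts and names both edgeR and DESeq2. The test and the gene totals used here can therefore differ from its own. Standard errors were derived from the F statistic. Isoform usage was tested with diffSpliceDGE. Alternatives used DESeq2 1.42.0 and limma 3.58.1. Figures were drawn with matplotlib 3.10.9. Symbols and coordinates are from RefSeq GRCm38.p6, matched for 17323 of 17374 gene IDs, and start regions from the same build. Transcript lengths are from GENCODE M21, on the same build.

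The members, lists and tests were chosen with earlier results of these data known, and the motifs after the data were seen. Named are all 7 members, for each its most abundant transcript and those with an unadjusted p under 0.05 or at the floor in 1 condition, from each list the extremes and genes with an unadjusted p under 0.05, and the 3 genes nearest in level to Rev1 and Mad2l2; any other transcript or list gene was picked with its values known. With 2 libraries per condition p-values measure the spread between these libraries.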

Additional observations from a re-analysis of the deposited data

How the results depend on the processing

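The members among the called gene totals stayed at 0 under all 14 alternatives and those called for isoform usage at 0 under all 8 (unadjusted p under 0.05: 0 member totals in each, but 3 of 7 without irradiated replicate 1, where 42.2% of all genes tested had one). Member transcripts called were 1 in DESeq2 and 1 in edgeR's exact test, XM_006496154.4 of Rev1 (log2 fold change -9.17 and -9.67), and 0 elsewhere. This transcript had 0 counts in both irradiated libraries, so the size of these values depends on how each method treats 0 counts. As above, the calls are not taken as support for a change. Over all genes, the 1 called total became 4 in DESeq2, 10 in the exact test, 3 without a filter, 7 with the replicate block and 0 in limma-voom (629 at an unadjusted p under 0.05), with library size alone in edgeR (586), and in limma on TPM with a pseudocount of 0.1 (409), of 1 (372) or without a filter (563). With each library left out in turn it was 16 to 51. In those fits the lone library is assumed to vary like the other condition. Called transcripts were 0 (1306 at an unadjusted p under 0.05 in edgeR, 941 in limma-voom), and 248 in DESeq2 and 247 in the exact test, and stayed at 0 with each library left out. Genes called for isoform usage were 16, and 0 with limma (505 at an unadjusted p under 0.05), 58 with the F test, 8 without a filter, 3 with the replicate block, and 2 to 30 with each library left out.

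Several member totals near 0 changed sign, none past the limits. On log2(TPM + 0.1), with or without the filter, and on log2(TPM + 1), Rad18 had 0.0428 and 0.0412, Rev1 0.0267 and 0.0223, Rev3l 0.0211 and 0.0167, and Poli 0.20 and 0.19. Poli also had 0.14 with library size alone, and 0.0584 without irradiated replicate 2 in a leave-one-out range from -0.0923. Mad2l2 had -0.0118 without control replicate 1 and -0.0859 without irradiated replicate 2, in a range up to 0.23. Among the most abundant transcripts, the TPM scale turned NM_021385.2 of Rad18 (0.15 and 0.14), NM_019570.4 of Rev1 (0.16 and 0.12), NM_012048.3 of Polk (0.0191 and 0.0122) and NM_011264.3 of Rev3l (0.0866 and 0.0503). Library size alone turned NM_021385.2 (0.0814), NM_019570.4 (0.0982) and NM_011264.3 (0.0038). Leaving out irradiated replicate 2 turned NM_021385.2 (0.0095), NM_019570.4 (0.15) and NM_027985.3 of Mad2l2 (-0.16), and leaving out control replicate 1 turned NM_019570.4 (0.0173), NM_011264.3 (0.11) and NM_027985.3 (-0.057). The other ends of these leave-one-out ranges were -0.12, -0.22, -0.33 and 0.25 for NM_021385.2, NM_019570.4, NM_011264.3 and NM_027985.3. TPM and library size alone move the median of all genes to 0.21 and 0.17; the cause of the other changes was not tested. Without irradiated replicate 1, 35.3% of all genes tested had an adjusted p under 0.05 in edgeR, among them 2 of the 7 (Rad18 0.0281, Rev1 0.0327), whose log2 changes were -0.27 and -0.33.

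The replicate number did not pair the libraries by any label, and the deviations of same-numbered libraries correlated at 0.0976 over 12569 genes. The block changed the sign or call of none of the 7 totals. The share of NM_012048.3 in irradiated Polk was 61.4% in TPM against 69.1% in counts. Polh had the fewest reads of the 7, 31 to 55 per library, and the widest standard error, 0.262.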
